A study of Nicotiana tabacum with 9 samples.

Results

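Lipid droplets store triacylglycerols under a monolayer of phospholipids, and the proteins on that monolayer set how the droplet forms, is used and is taken apart. The 6 tobacco genes described here encode homologs of 3 such proteins and were taken by gene name from the annotation deposited with the counts, which lists 74044 genes. Of these 6, LOC107804268 and LOC107765167 are homologs of Arabidopsis LDAP1, a lipid droplet-associated protein that coats droplets outside seeds. LOC107776898 is a homolog of LDAH1, a putative hydrolase of droplets. LOC107830718, LOC107769345 and LOC107823379 are homologs of PUX10, which in Arabidopsis brings the unfolding ATPase CDC48 to the droplet so that ubiquitinated droplet proteins can be extracted and degraded. In Arabidopsis the LDAPs are held at the droplet by LDIP, the LDAP-interacting protein. Pollen and growing pollen tubes are rich in lipid droplets.

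Pollen of *Nicotiana tabacum*, cultivar Samsun-NN, was pooled over several plants and grown into tubes on cellophane over solid medium. Tubes were harvested after 3 h at room temperature (RT 3 h), after 6 h at room temperature (RT 6 h), or after 3 h at room temperature and a further 3 h at 37°C (HS 3 + 3 h, where HS is heat stress), with 3 libraries each. The labels name no transgene or mutant. They do not say if the 3 libraries of a group were made from different pools of pollen, so p-values refer to the spread between these libraries, which may be technical.

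The libraries held between 14931693 and 26772286 counts on genes, HS replicate 1 being the shallowest, and the 6 genes took between 0.0121% and 0.0268% of them. Replicate libraries of a group differed by more than sampling noise, with a chi-square per degree of freedom between 1.68 and 6.06. The pollen-expressed genes ntp101, ntp201, ntp805 and OBL1 summed to 31350 to 34700 CPM (counts per gene scaled to a common library total, corrected by TMM, the trimmed mean of M-values) at RT 3 h, 39470 to 43180 CPM at RT 6 h and 43620 to 45620 CPM under HS, while the leaf genes CAB21 and PSBR had at most 6 counts in any library. Their summed level was 0.223 to 0.365 CPM in HS libraries and 0.0765 to 0.117 CPM in RT 6 h libraries. HSP101, a chaperone that heat induces, went from 4.42 to 5.02 CPM at RT 6 h to 197 to 220 CPM in the HS libraries. Because whole tubes were extracted, changes in the number of cells and in RNA per cell cannot be told apart in these levels.

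The 6 genes lie on 6 scaffolds of the TN90 genome assembly. LOC107804268 lies on NW_015938885.1 from 3838 to 5878 on the minus strand and LOC107765167 on NW_015885276.1 from 36790 to 39353, also on the minus strand. Both have 3 exons, and their coding parts measured 15, 231 and 447 bases in LOC107804268 and 15, 231 and 450 bases in LOC107765167, giving proteins of 230 and 231 residues. The pair thus shares its first coding parts by length and differs by 1 codon in the last one. LOC107776898 lies on NW_015902309.1 from 25429 to 31019 on the minus strand, with 8 exon blocks and a protein of 457 residues. Its internal coding exons, the shortest of 95 and the longest of 438 bases, have the same lengths in the other LDAH1 homologs, LOC107829567 and LOC107825961.

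LOC107830718 lies on NW_015858302.1 from 10501 to 16178 and LOC107769345 on NW_015889358.1 from 25247 to 31265, both on the plus strand and both coding for 464 residues. LOC107823379 lies on NW_015834182.1 from 14630 to 19152 on the minus strand and codes for 459 residues. All of the PUX10 homologs have 4 exons, of which the last 3 coding parts are 171, 204 and 231 bases long in each. The first coding part is 789 bases long in LOC107830718 and LOC107769345 and 774 bases long in LOC107823379 and in LOC107799924, the remaining PUX10 homolog. Sequences of the homologs were not compared here. Where they are alike, reads of 50 bases can be split between homologs or withheld. The treatment of reads with several matches is not given in the sources used here, and values of single homologs are uncertain to that extent.

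**Figure D1:**
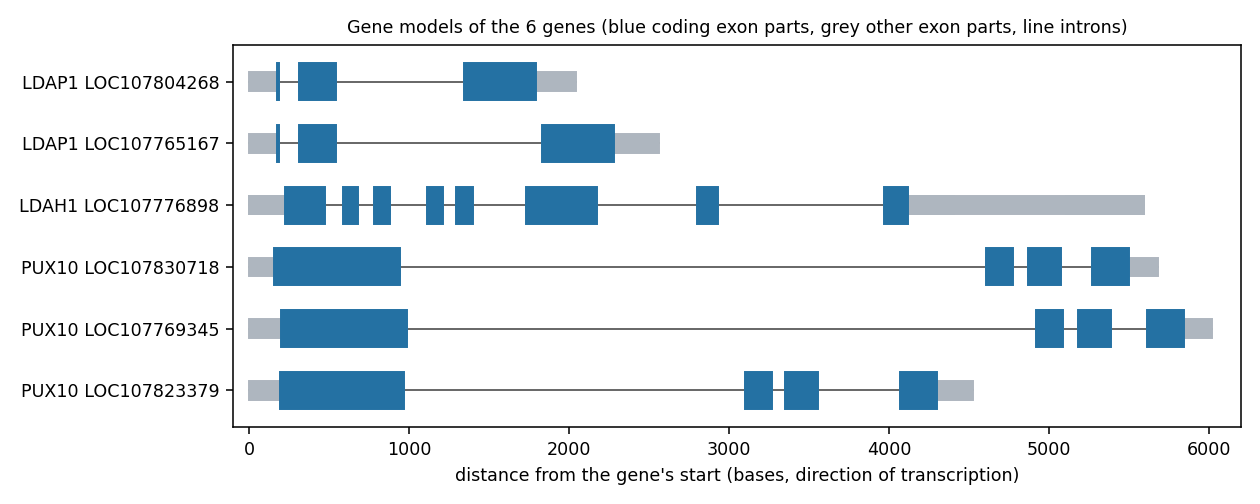
Gene models of the 6 genes drawn to scale, with the distance from the start of each gene in bases on the x axis, coding exon parts in blue, other exon parts of any transcript in grey and introns as lines. The LDAP1 pair has 3 exons each, the LDAH1 homolog 8 exon blocks, and each PUX10 homolog 4 exons with a long first intron.

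None of the 6 genes overlapped another annotated gene. The libraries carried no strand, which bears on neighbors of the opposite strand, and 2 neighbors lay close. LOC107776899 starts 199 bases downstream of the LDAH1 homolog LOC107776898 on the same strand and was far more abundant, at 2306 to 3631 CPM. LOC107765168 lies 196 bases from the 3' end of LOC107765167 on the opposite strand and reached at most 1.21 CPM. The part of reads from neighbors in the values below was not tested.

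Levels of different genes were compared per length, as RPKM (CPM per 1000 bases of merged exons). At RT 6 h, the LDAP1 homologs stood highest of the 6, with 61.9 ± 0.986 RPKM (SD, n = 3, as for all levels below) for LOC107804268 and 56.3 ± 2.04 RPKM for LOC107765167. These levels lay at percentiles 95.4 and 95.1 of the 24013 expressed genes. The LDAH1 homolog LOC107776898 followed with 4.67 ± 0.147 RPKM, LOC107830718 with 4.44 ± 0.212 RPKM and LOC107769345 with 3.11 ± 0.197 RPKM. LOC107823379 came last with 0.295 ± 0.0156 RPKM, at percentile 12.6. The levels of LOC107776898 and LOC107830718 differed by about as much as their spread, whereas the other neighbors in this order were further apart than their SDs. Under HS, LOC107804268 reached 135 ± 7.44 RPKM against 79.9 ± 4.66 RPKM for LOC107765167, and LOC107776898 reached 10.1 ± 0.990 RPKM against 5.43 ± 0.318 RPKM for LOC107830718.

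The first question was how heat stress changed these transcripts in tubes of equal age, HS 3 + 3 h against RT 6 h. All 6 log2 fold changes (log2FCs) lay above 0. At a false discovery rate (FDR) of at most 0.005, which is what rose and fell refer to below, 4 of the 6 genes rose and none fell, where 31.9% of the 23053 genes tested passed (17.5% higher and 14.4% lower). Differential expression further required an absolute log2FC above 1, which LOC107804268 and LOC107776898 passed. That made 2 of 6 genes, against 9.11% of all genes (6.24% higher and 2.87% lower). The study had named both of them from this same comparison, and had described low but significant, slight rises for all 4 PUX10 homologs it detected. The 6 were chosen with such results known, so their shares and signs in the heat comparisons follow in part from that choice. In the test used here, 1 of the 4 PUX10 homologs passed the FDR limit. Of the 8 other LDAP, LDIP, LDAH1 and PUX10 homologs, 3 rose, 2 fell and 0 passed both limits. Among all genes, 1439 were higher and 661 lower past both limits, or 1169 and 1071 when library sizes were not corrected by TMM, an alternative that moved the median log2FC of all genes from 0.01 to -0.15.

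Among the LDAP1 homologs, both coat protein genes rose and did so unequally. LOC107804268 had 70.2, 68.8 and 68.0 CPM in the RT 6 h libraries and 157, 142 and 154 CPM in the HS libraries. All HS libraries stood well above those of RT 6 h, with no overlap. The log2FC was 1.13 (SE 0.0483, 95% interval 1.03 to 1.22, FDR 2.91e-36), a 2.19-fold higher level. It lay at percentile 94.3 of the log2FCs of all genes.

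LOC107765167 had 64.9, 67.4 and 62.7 CPM at RT 6 h and 91.6, 87.3 and 98.0 CPM under HS. The groups did not overlap, and the rise was smaller, with a log2FC of 0.51 (SE 0.0508, 95% interval 0.41 to 0.61, FDR 1.28e-14), or 1.42-fold. The within-library log2 ratio of LOC107804268 over LOC107765167 was 0.09 ± 0.0494 at RT 6 h and 0.71 ± 0.0619 under HS, a difference of 0.62. This ratio does not depend on how the libraries are scaled. The exact two-sided permutation test gave p = 0.1, the smallest that 3 against 3 libraries allow, so the design could not reach 0.05. For the 12 ratios tested in this way the adjusted p was at best 0.133. Of the transcripts of the pair, LOC107804268 made up 52.4 ± 0.856% at RT 6 h and 62.9 ± 1.00% under HS.

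**Figure D2:**
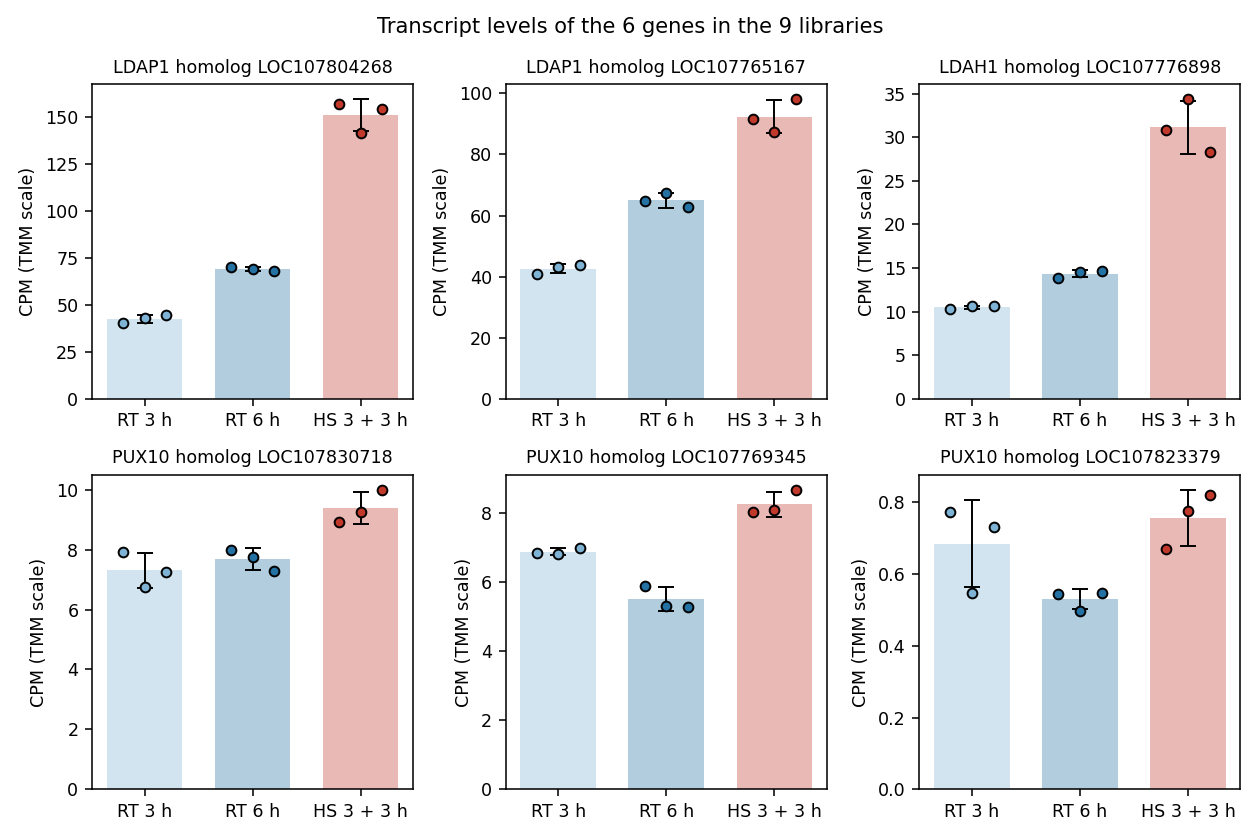
Transcript levels in CPM on the TMM scale (y axis, from 0, different in each panel) in each of the 9 libraries (points), with bars for the mean and error bars for the SD of 3 libraries. The HS points of both LDAP1 homologs and of the LDAH1 homolog lie above all points of RT 3 h and RT 6 h. The same holds, by smaller margins, for the PUX10 homologs LOC107830718 and LOC107769345. The HS points of LOC107823379 overlap those of RT 3 h.

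The LDAH1 homolog LOC107776898 rose by about as much as LOC107804268 from a lower level. It had 13.9, 14.5 and 14.7 CPM at RT 6 h and 30.9, 34.3 and 28.3 CPM under HS. The HS libraries spread more than those of RT 6 h but lay clear of them. The log2FC was 1.12 (SE 0.0722, 95% interval 0.97 to 1.26, FDR 1.56e-24), so that the interval reached below the limit of 1. Without TMM the log2FCs of LOC107776898 and LOC107804268 were 0.96 and 0.97, and neither then passed the fold limit, although both stayed at an FDR under 0.005. In a test against a log2FC of 1 rather than 0, LOC107776898 had an FDR of 0.280 and LOC107804268 of 0.0246. The abundant gene downstream of LOC107776898, LOC107776899, had a log2FC of 0.21 (SE 0.0379) in the same comparison.

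The other LDAH1 homologs also rose under HS but by less, LOC107829567 with a log2FC of 0.59 (FDR 1.81e-16) and LOC107825961 with 0.25 (FDR 3.12e-05). The log2 ratio of LOC107776898 over LOC107829567 went from -1.64 ± 0.0148 at RT 6 h to -1.12 ± 0.127 under HS, and that over LOC107825961 from -2.04 ± 0.0514 to -1.18 ± 0.150. The groups were apart in both ratios (exact permutation p = 0.1 each, the smallest possible). LOC107776898 remained the least abundant of the 3 per length, with 9.68 ± 0.183% of their summed RPKM at RT 6 h and 15.0 ± 1.21% under HS. The sum of the 3 went from 48.3 ± 1.85 to 67.6 ± 1.78 RPKM.

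Of the 3 PUX10 homologs 1 rose, and all 3 had smaller log2FCs than LOC107804268 and LOC107776898. LOC107769345 had 5.90, 5.32 and 5.28 CPM at RT 6 h and 8.02, 8.08 and 8.67 CPM under HS, with a log2FC of 0.59 (SE 0.110, 95% interval 0.37 to 0.81, FDR 3.76e-06), or 1.51-fold. LOC107830718, the most abundant of them at room temperature, had 7.99, 7.76 and 7.27 CPM at RT 6 h and 8.91, 9.27 and 9.99 CPM under HS. Its groups did not overlap, but its log2FC of 0.30 (SE 0.0998, 95% interval 0.10 to 0.50) had an FDR of 0.0103 and missed the limit. LOC107830717, the gene 840 bases upstream of it on the same strand, had 9, 4 and 5 counts at RT 6 h and 21, 19 and 27 under HS, beside 120 to 219 counts of LOC107830718 under HS.

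LOC107823379 was at the edge of detection, with 13, 13 and 14 counts at RT 6 h and 9, 17 and 18 under HS. Its log2FC of 0.53 had a 95% interval from -0.15 to 1.20 and an FDR of 0.209, so a change of the size seen for LOC107769345 was not detectable at this depth. LOC107799924, the PUX10 homolog outside the 6, had 16 to 17 counts at RT 6 h, 7 to 21 under HS and a log2FC of 0.20 (95% interval -0.45 to 0.86). The log2 ratio of LOC107769345 over LOC107830718 was -0.48 ± 0.0561 at RT 6 h and -0.18 ± 0.0285 under HS, and the groups did not overlap (exact permutation p = 0.1). The 4 PUX10 homologs summed to 8.19 ± 0.412 RPKM at RT 6 h and to 10.9 ± 0.582 RPKM under HS. In each group, LOC107830718 and LOC107769345 together carried most of that sum, with 54.3 ± 1.06% and 38.0 ± 0.764% at RT 6 h.

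The second question was how the same genes moved while tubes grew from 3 h to 6 h without heat. This comparison shares the RT 6 h libraries with the one above, so the 2 sets of values are not independent. Growth raised both LDAP1 homologs and the LDAH1 homolog, 3 of 6 genes, with none lower, where 15.3% of the 23043 genes tested passed the FDR limit (7.39% higher and 7.92% lower). None of the 6 passed both limits, against 1.7% of all genes (0.911% or 210 genes higher and 0.785% or 181 genes lower, and 134 and 339 genes without TMM). At RT 3 h the 2 LDAP1 homologs had nearly equal CPM, 40.4, 42.9 and 44.4 for LOC107804268 and 40.9, 43.0 and 43.7 for LOC107765167. From there LOC107804268 rose by a log2FC of 0.70 (SE 0.0599, FDR 6.39e-10) and LOC107765167 by 0.62 (SE 0.0599, FDR 6.27e-09).

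The pollen-expressed genes ntp101, ntp201 and ntp805 also rose during growth, with log2FCs of 0.34, 0.27 and 0.31, while OBL1 (LOC107788962) had 0.11 (FDR 0.664), and their part in the rises of the LDAP1 and LDAH1 homologs was not tested. The log2 ratio of the LDAP1 pair was 0.00 ± 0.0224 at RT 3 h and thus 0.09 apart from RT 6 h, with an exact permutation p of 0.1. LOC107776898 had 10.3, 10.6 and 10.6 CPM at RT 3 h and rose by a log2FC of 0.46 (SE 0.0818, FDR 8.29e-05) to RT 6 h. That call was lost without TMM, with a log2FC of 0.32 and an FDR of 0.00553. Its downstream neighbor LOC107776899 had a log2FC of 0.35 (SE 0.0471) in the same libraries. The LDAH1 homolog LOC107829567 went the other way and fell by 0.42 on the log2 scale (FDR 3.44e-06), and LOC107825961 had a log2FC of 0.13 (FDR 0.123). The log2 ratio of LOC107776898 over LOC107829567 accordingly moved by 0.88, from -2.52 ± 0.0675 at RT 3 h (exact permutation p = 0.1).

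None of the 3 PUX10 homologs passed the FDR limit of edgeR during growth, nor with DESeq2, and 1 had an unadjusted p under 0.05. LOC107769345 had 6.85, 6.80 and 6.99 CPM at RT 3 h, each above every RT 6 h library, and a log2FC of -0.32 (SE 0.107, unadjusted p 0.00614, FDR 0.0275). Without TMM its log2FC was -0.46 with an FDR of 0.00229, which would pass. LOC107830718 had 7.93, 6.77 and 7.25 CPM at RT 3 h and a log2FC of 0.08 (95% interval -0.13 to 0.29), which became -0.07 without TMM. LOC107823379, with 20, 16 and 20 counts at RT 3 h, had a log2FC of -0.35 (95% interval -0.99 to 0.28). For LOC107769345 the values therefore lay lower at RT 6 h than in both other groups.

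**Figure D3:**
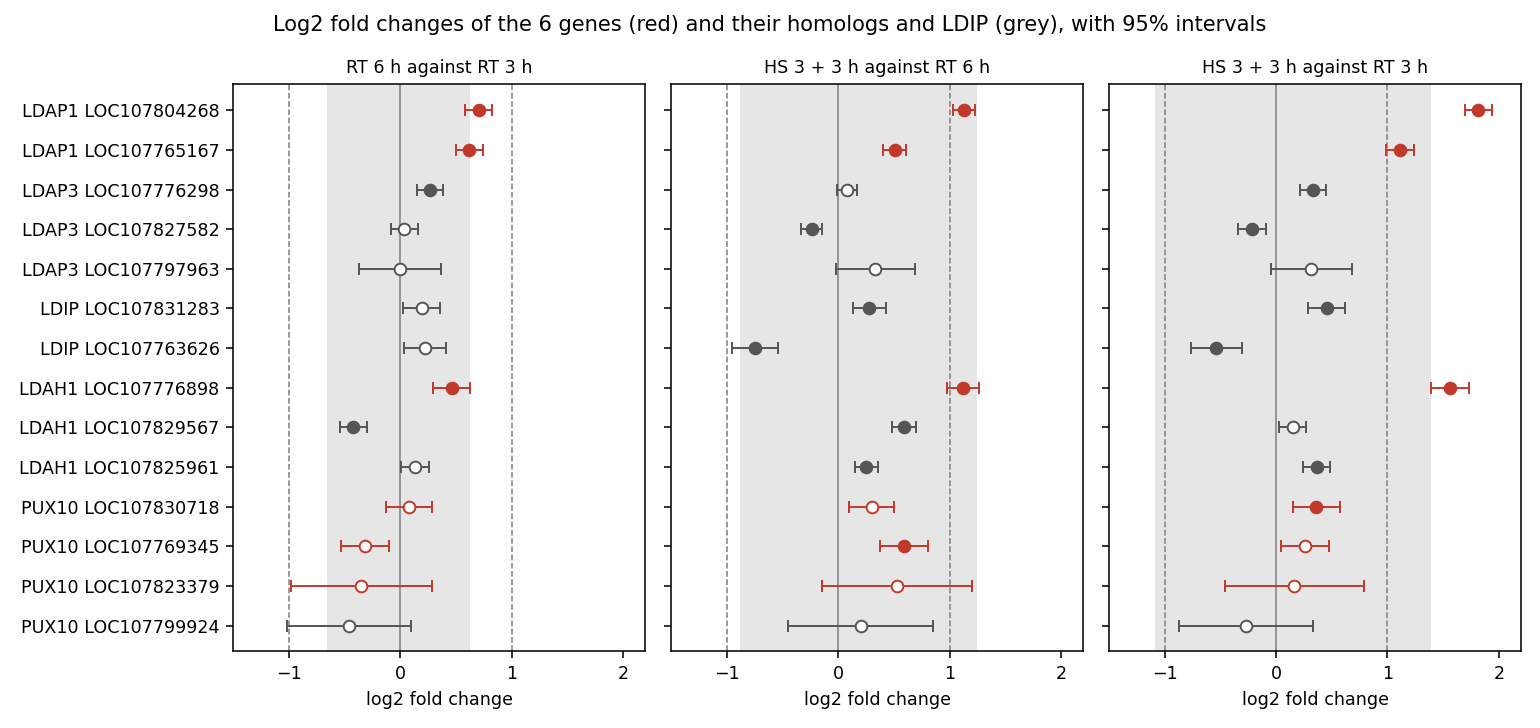
Log2 fold changes (x axis) of the 6 genes (red) and of their homologs and LDIP (grey) in the 3 comparisons, with 95% intervals, filled where the FDR was at most 0.005, beside the range from percentile 5 to 95 of all genes tested (grey band) and the limits of -1 and 1 (dashed). LOC107804268 and LOC107776898 lie beyond 1 in both heat comparisons, at 1.13 and 1.12 against RT 6 h and at 1.82 and 1.56 against RT 3 h.

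Set against tubes at the onset of heat, RT 3 h, the HS tubes had passed through growth and heat together. Here 4 of 6 genes rose and none fell, against 35.3% of the 23373 genes tested (18.5% higher and 16.9% lower), and 3 of 6 passed both limits, against 12.3% (7.36% or 1720 genes higher and 4.92% or 1150 genes lower, and 1161 and 2565 genes without TMM). The log2FC was 1.82 (SE 0.0615, FDR 1.60e-22) for LOC107804268, 1.11 (SE 0.0622, FDR 2.19e-16) for LOC107765167 and 1.56 (SE 0.0840, FDR 7.05e-17) for LOC107776898, which in linear terms is 3.52-fold, 2.16-fold and 2.96-fold. The 2 LDAP1 homologs that started from nearly equal levels thus ended at 151 ± 8.29 and 92.3 ± 5.39 CPM. LOC107830718 had a log2FC of 0.36 (SE 0.105) and an FDR of 0.00468, just inside the limit, which was lost in 11 of 15 alternatives. LOC107769345 had 0.26 (95% interval 0.04 to 0.48, FDR 0.0408) and LOC107823379 0.16 (95% interval -0.46 to 0.79), and both turned negative without TMM, to -0.02 and -0.12.

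**Figure D4:**
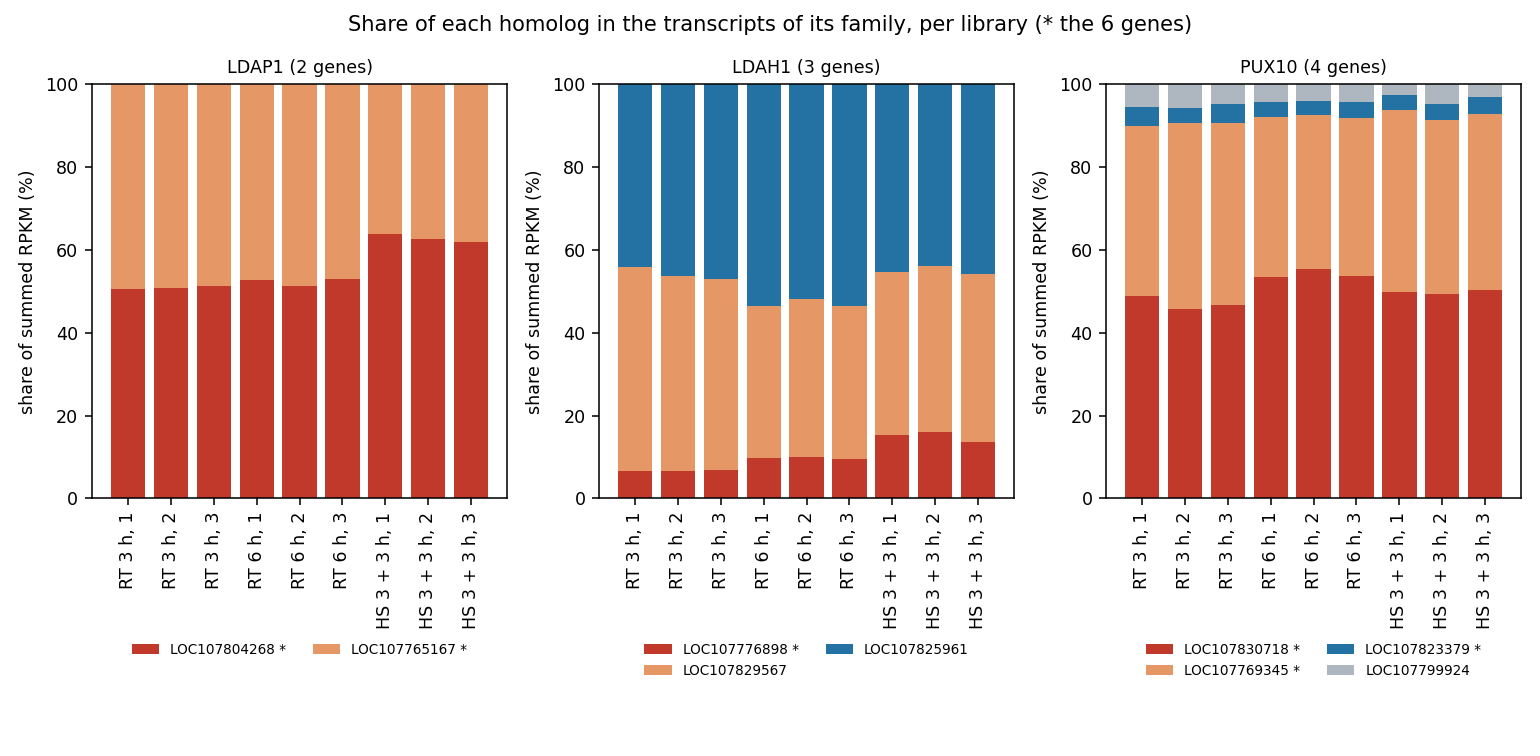
Share of each homolog in the summed RPKM of its family in percent (y axis, from 0 to 100) in each of the 9 libraries (x axis). The share of LOC107804268 in the LDAP1 pair lies between 50.5% and 52.9% without heat and between 62.0% and 64.0% under HS, and that of LOC107776898 in the LDAH1 family between 6.56% and 9.87% without heat and between 13.7% and 16.1% under HS.

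The closest relatives and partner of LDAP1 did not move as one group. The LDAP3 homologs LOC107776298 and LOC107827582 stood above each LDAP1 homolog at RT 6 h, at 115 ± 3.96 and 136 ± 5.90 RPKM. Under HS, LOC107776298 had a log2FC of 0.08 (95% interval -0.01 to 0.17, FDR 0.176), and LOC107827582 fell by 0.24 on the log2 scale (FDR 1.58e-05). LOC107797963, at 1.80 ± 0.280 RPKM, had a log2FC of 0.33 (FDR 0.122). The 3 LDAP3 homologs summed to 253 ± 9.89 RPKM at RT 6 h and 239 ± 10.6 RPKM under HS, while the LDAP1 pair went from 118 ± 2.53 to 215 ± 11.2 RPKM. Of the LDIP homologs, LOC107831283 rose by 0.28 (FDR 0.00115) and LOC107763626 fell by 0.75 (FDR 3.09e-09) on the log2 scale.

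The study's list of lipid genes came from outside sources and was matched to tobacco transcripts detected in these libraries, and 35 of them, the 6 included, encode lipid droplet proteins. All 35 were tested in HS against RT 6 h, and 10 rose, 6 fell and 19 did not pass, or 16 of 35 (45.7%) beside 31.9% of all genes. Their median log2FC was 0.13, beside 0.01 for all genes. Without the 6 genes, 6 of the other 29 rose and 6 fell, with a median of 0.03. Past both limits stood 4 higher genes and 1 lower gene. Beside LOC107804268 and LOC107776898 the higher genes were HSD5 (LOC107774779, a steroleosin) and OLE5 (LOC107821969, an oleosin), both nearly absent without heat. In every RT 6 h library both lay below the CPM needed for testing, so they entered the test through their HS libraries alone. A gene that enters in this way can only come out higher. Both count among the 10 of 35 and the 6 of 29 genes that rose. How many of all genes entered in this way was not counted. HSD5 had 0, 0 and 4 counts at RT 6 h and 44, 71 and 63 under HS (FDR 4.33e-23), and OLE5 had 1, 0 and 0 counts and then 19, 20 and 24 (FDR 8.47e-13). The lower gene was the OLE8 homolog LOC107780677, an oleosin with 13.0, 11.9 and 15.2 CPM at RT 6 h and 5.12, 6.12 and 5.47 CPM under HS (log2FC -1.25, FDR 2.02e-18).

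The families of the list differed in how many members passed in HS against RT 6 h, where 17.5% of all genes rose and 14.4% fell. They also differed in depth, so their counts of passing genes cannot be compared directly. At RT 6 h the LDAH1 homologs had 331 to 1599 counts, and the PUX10 homologs LOC107823379 and LOC107799924 had 13 to 17. All 3 LDAH1 homologs rose, 2 of 5 LDAPs rose and 1 fell, 1 of 4 PUX10 homologs rose, and of the 5 oleosins, which coat droplets in seeds and pollen, 1 rose and 2 fell. Among 4 caleosins, calcium-binding droplet proteins, CLO2 (LOC107783728) came nearest, with a log2FC of -0.43 and an FDR of 0.00511 by edgeR's quasi-likelihood test. During growth 33 of the 35 genes were tested, and 4 rose, among them 3 of the 6, and 4 fell, or 8 of 33 (24.2%) beside 15.3% of all genes (7.39% higher and 7.92% lower). Without the 6 genes it was 5 of 27 (18.5%), with 1 higher and 4 lower.

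**Figure D5:**
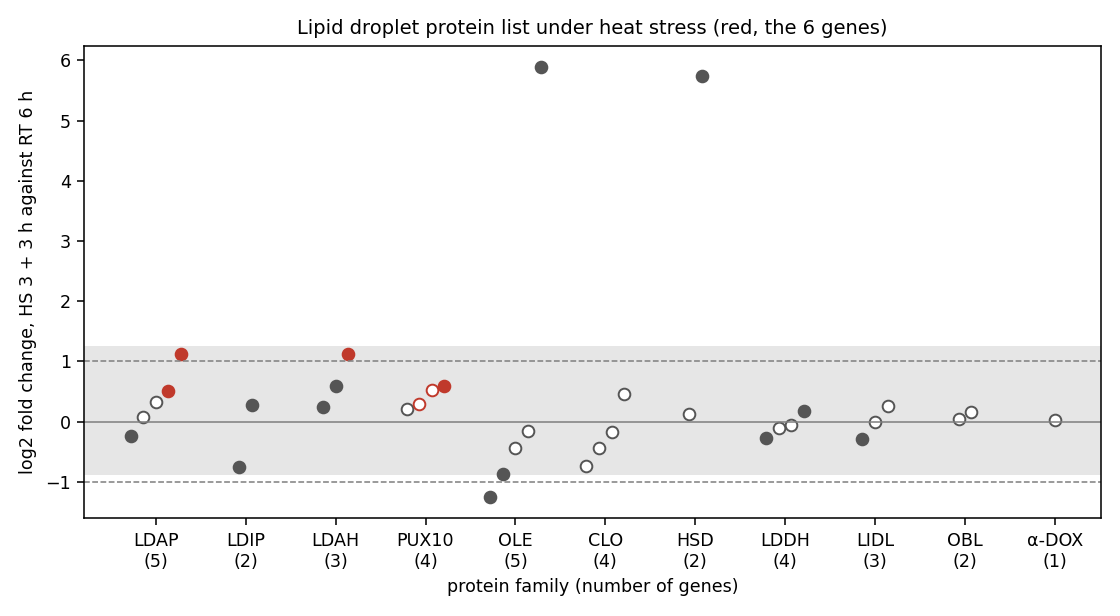
Log2 fold changes in HS 3 + 3 h against RT 6 h (y axis) of the 35 genes of lipid droplet proteins by family (x axis, with the number of genes), filled where the FDR was at most 0.005, with the 6 genes in red, the range from percentile 5 to 95 of all genes as a grey band and the limits of -1 and 1 dashed. The red points lie between 0.30 and 1.13, and OLE5 and HSD5, which had at most 4 counts in any RT 6 h library, lie near the top, where their height depends on the prior count.

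Over the 9 libraries, many genes correlated with the LDAP1 and LDAH1 homologs, though the size of their changes differed. The genes most like LOC107804268 by Pearson's r of log2 CPM were LOC107826314, LOC107777983 and LOC107786877 (r of 0.998, 0.998 and 0.997), and 800 of 24013 genes had r above 0.95. LOC107760285, LOC107777476 and LOC107776980 were most like LOC107765167 (each r 0.996), with 631 genes above 0.95, and LOC107811763, LOC107813893 and LOC107817907 most like LOC107776898 (r of 0.996, 0.996 and 0.996), with 855 genes above 0.95. For LOC107830718 they were LOC107827686, LOC107795812 and LOC107764974 (r of 0.977, 0.976 and 0.976), with 34 genes above 0.95. None of these 12 genes belongs to the list of 35. Genes of the list can still correlate strongly, with r of 0.983 for LOC107776898 with LOC107804268 and 0.979 for the LDAP1 pair. Among the 6 genes the lowest r was 0.188, for LOC107765167 with LOC107823379. These r values are descriptions, since the 9 libraries form 3 groups and all genes share the same libraries. They do not measure the size of a change. In HS against RT 6 h the 3 genes most like LOC107804268 had log2FCs of 1.23, 0.45 and 0.358. Those most like LOC107776898 had 1.16, 0.579 and 0.243.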

How the data were processed

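Counts per gene were used as deposited. Per the labels and the methods of the study, the authors sequenced non-stranded poly(A) libraries as single-end reads of 50 bases, aligned them to the TN90 genome with STAR 2.5.2a and counted them per annotated gene with featureCounts 1.5.0-p1, giving whole-number counts without normalization. Groups and replicate numbers were taken from the sample titles.

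Tests were run in R 4.3.3 with edgeR 4.0.16, using the quasi-likelihood test with TMM normalization on the 6 libraries of each comparison and Benjamini-Hochberg adjustment over all genes above 0.5 CPM in 2 or more libraries. The fit was also run on simulated counts in which every gene had the same spread beyond counting error. These libraries need not have that property, so the run does not measure the error rates here. SEs were calculated back from the log2FC and the F statistic of the quasi-likelihood test on the deposited counts. The 95% intervals were built on these SEs. CPM and RPKM levels used TMM over all 9 libraries and the merged exon length of the deposited annotation. Homolog ratios used log2 CPM with a prior count of 2 and exact permutation tests (scipy 1.17.1). DESeq2 1.42.0 was an alternative. Intervals and counts cover counting error and the spread of these libraries only.

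Named genes were the 6 genes, other LDAP, LDIP, LDAH1 and PUX10 homologs of the list, list genes past both limits under HS, and the 3 genes most correlated with 4 of the 6. CLO2, HSD1, the neighboring genes and the marker genes lie outside this rule, and CLO2, HSD1 and the neighbors were chosen after their values were seen. Members, lists and limits were chosen with earlier results of these data known. Marker genes were taken by symbol from a RefSeq table of the K326 assembly, which held 56749 of 72624 gene names, after the files were seen. Lists that needed product descriptions, tapetum markers among them, were not used here.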

Additional observations from a re-analysis of the deposited data

How the results depend on the processing

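In HS 3 + 3 h against RT 6 h, the calls of LOC107804268, LOC107776898, LOC107765167 and LOC107769345 at an FDR of at most 0.005 held in 14 of 15 alternatives each, the exception being the test against a log2FC of 1 (log2FCs as before, 1.13, 1.12, 0.51 and 0.59). Without TMM, as in that test, 0 members passed both limits. Relative to the median of all genes the log2FC of LOC107804268 was 1.12 with and without TMM. That median was -0.13 for growth and -0.28 against RT 3 h without TMM. Under the test against 1, genes past both limits numbered 837, 64 and 1034 (HS against RT 6 h, growth, HS against RT 3 h), and where each library had to hold 10 counts or more 1254 and 1889 for the heat comparisons. The list then held 2 and 0 (test against 1, HS against RT 6 h and growth) and 3 (at least 10 counts, HS against RT 6 h), and LOC107823379 was no longer tested under HS. For growth, the list gene past both limits (HSD1, LOC107771906) was lost with DESeq2 (0), and leaving out 1 library gave 0 to 1, since only leaving out RT 3 h replicate 1 kept it. At the FDR limit alone, leaving out 1 library gave 2195 to 3765 genes and 5 to 8 list genes, the lowest without RT 6 h replicate 2.

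Growth log2FCs of LOC107804268, LOC107765167 and LOC107776898 (0.70, 0.62 and 0.46) also failed the test against 1, and without TMM they included 0.32 for LOC107776898 (call lost), -0.46 for LOC107769345 (call gained) and -0.065 for LOC107830718 (sign turned). Against RT 3 h, LOC107765167 (1.11) failed the test against 1. LOC107830718 lost its call with DESeq2 (0.36), without TMM (0.077), without a filter (0.35) and with at least 10 counts (0.35). The call was also lost with the replicate block (0.37), in the test against 1 (0.36) and without any single library but RT 3 h replicate 1. In that comparison its log2FC was 0.29 to 0.42 over all fits without 1 library. There LOC107769345 and LOC107823379 turned to -0.025 and -0.12 without TMM, and LOC107823379 ranged from -0.0018 to 0.25 when 1 library was left out. The log2 ratio of LOC107823379 over LOC107769345 moved by 0.0079 during growth, by -0.019 with a prior count of 0.5, and by -0.12 to 0.097 without 1 library. The cause of these changes was not tested. RPKM from gene span gave 33.8, 25.3, 2.57, 1.35, 0.914 and 0.117 at RT 6 h for LOC107804268, LOC107765167, LOC107776898, LOC107830718, LOC107769345 and LOC107823379, in the same order as before.

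Same-numbered libraries of different groups had correlations of -0.0186 to 0.106 in their deviations, and 0 of 9 libraries correlated best with its own number, so the numbers were not taken as pairs. The replicate block gave 2064, 415 and 2799 genes past both limits and changed no other call of the 6 genes. Among the 6 genes and their LDAP, LDIP, LDAH1 and PUX10 homologs, LOC107823379 and LOC107799924 had the fewest counts, at most 27 in any library.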
